A study of Mus musculus with 21 samples.

Results

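Metabotropic glutamate receptors are G protein-coupled receptors for glutamate, and 6 of their genes (Grm2, Grm3, Grm4, Grm5, Grm7 and Grm8) were followed here by name among the 24984 genes of a nascent RNA count table. All 6 passed the filter on low counts, as did 16959 genes in all. The measurements came from BrU-seq, in which cells take up bromouridine, and only RNA that carries it is sequenced, so a value reports recent synthesis over the whole gene, introns included, and not the amount of receptor. The cells were primary cortical cultures of CD1 mice on day 17 in vitro, of mixed sex. Every culture was preincubated for 30 min with the solvent DMSO or with 25 µM MM401, was then given 40 µM bicuculline or water, and received 2 mM bromouridine in the last 30 min. Bicuculline blocks inhibitory GABA-A receptors and so raises network activity, and MM401 is an inhibitor of the histone H3 lysine 4 methyltransferase MLL1. The 7 groups were DMSO with water for 4 h, DMSO with bicuculline for 1 h or 4 h, MM401 with water for 1 h or 4 h, and MM401 with bicuculline for 1 h or 4 h. Each had 3 biological replicates, but replicate 3 of MM401 with water at 4 h held 316741 counts, 0.503% of the median of the others, and was left out by the rule that chose the genes, so that group had 2. DMSO with water at 1 h was not analysed here, and the 1 h response under DMSO was therefore taken against water at 4 h.

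The receptors fall into 3 groups by sequence and coupling. Group I, here Grm5, is mostly postsynaptic and acts through Gq, phospholipase C and calcium release. Group II, Grm2 and Grm3, and group III, Grm4, Grm7 and Grm8, act through Gi/o proteins, which lower cyclic AMP and restrain calcium channels. Grm2, Grm4, Grm7 and Grm8 encode mainly presynaptic receptors that limit transmitter release, and Grm3 is also made by astrocytes.

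In the table's mm10 coordinates Grm2 spanned chr9:106644533-106656109 on the minus strand, a short gene of 11577 bp. Grm3 spanned chr5:9485235-9725352 (minus strand, 240118 bp) and Grm4 chr17:27422387-27503533 (minus strand, 81147 bp). The other members were far longer. Grm5 lay at chr7:87584167-88135063 (plus strand, 550897 bp), Grm7 at chr6:110645511-111567230 (plus strand, 921720 bp) and Grm8 at chr6:27275120-28135146 (minus strand, 860027 bp). The only other gene of the table that overlapped a member was the microRNA gene Mir592 inside Grm8, with a median count of 0.

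RefSeq start regions, from 250 bases before to 50 after an annotated start (build GRCm38.p6), were matched for 4 of the 6 members: Grm2, Grm3, Grm7 and Grm8. Those of the group II pair are shown because these paralogs differed in their response to bicuculline. Each was searched on both strands for motifs of activity-regulated factors: TGACGTCA (the CRE bound by CREB), its core TGACG, the AP-1 motif TGACTCA, the E-box CACGTG and the Egr motif GCGNGGGCG. The Grm2 region was chr9:106656060-106656359 and the Grm3 region chr5:9725303-9725602, both on the minus strand. Capitals mark a match.
Grm2: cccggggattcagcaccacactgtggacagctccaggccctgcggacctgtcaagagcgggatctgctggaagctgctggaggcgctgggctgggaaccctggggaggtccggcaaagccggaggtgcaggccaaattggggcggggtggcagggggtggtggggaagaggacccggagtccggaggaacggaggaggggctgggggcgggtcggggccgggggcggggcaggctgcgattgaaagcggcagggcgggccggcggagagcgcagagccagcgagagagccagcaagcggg
Grm3: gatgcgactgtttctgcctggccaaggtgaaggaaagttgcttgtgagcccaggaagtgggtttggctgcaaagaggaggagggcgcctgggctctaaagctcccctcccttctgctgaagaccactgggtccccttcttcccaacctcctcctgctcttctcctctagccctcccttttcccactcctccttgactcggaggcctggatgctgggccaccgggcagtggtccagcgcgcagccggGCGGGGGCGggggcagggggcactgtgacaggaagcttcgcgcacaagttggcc
The Grm2 region held none of these letters, and 72.0% of its bases were G or C. The Grm3 region held a single match, to the Egr motif across the start, a motif found in 5.55% of the 32851 start regions of this length. The start regions of Grm7 held no match. In Grm8, which had 3 start regions, the one at chr6:28134372-28134671 held the core TGACG, as did 20.8% of all start regions. The full CRE occurred in 1.79% of start regions, the AP-1 motif in 5.2% and the E-box in 7.15%. A match is a description of letters in this window and says nothing on binding.

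Set on a common scale, library-scaled counts (CPM) per kilobase of gene span, Grm7 and Grm5 dominated the receptors measured. The median over 20 libraries was 3.18 for Grm7 (range 2.11 to 4.09) and 2.85 for Grm5 (2.24 to 3.43). Grm7 made up a median of 42.2% and Grm5 35.4% of the summed level of the 6 genes. Grm3 followed with a median of 1.00 (0.671 to 1.42). The low members were Grm8 with 0.329 (0.216 to 0.386), Grm2 with 0.271 (0.161 to 0.381) and Grm4 with 0.188 (0.0993 to 0.342). The ranges of Grm7 and Grm5 overlapped, as did those of Grm8, Grm2 and Grm4, whereas Grm3 lay apart from both sets. The retinal receptor gene Grm6, which is not a member, had 0 to 2 counts in each of the 20 libraries and was not tested.

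**Figure D1:**
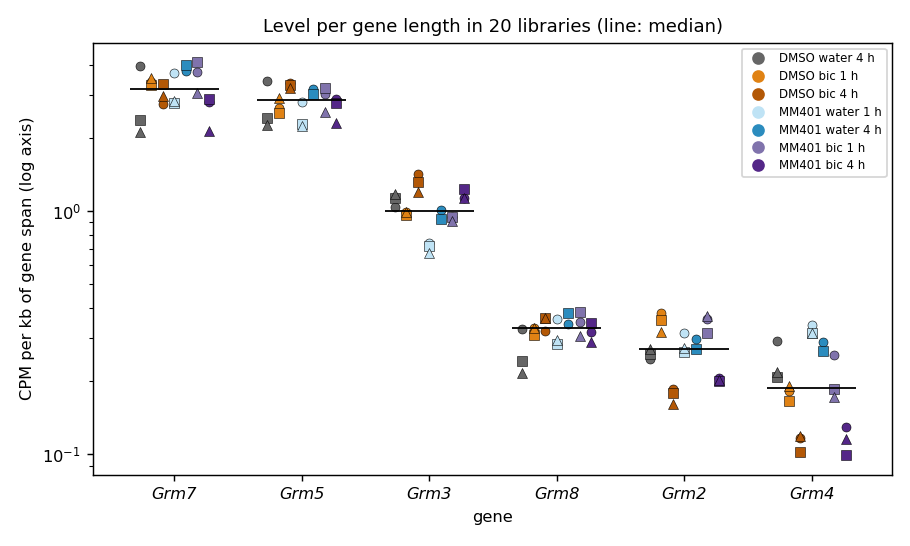
Level of the 6 receptor genes in CPM per kilobase of gene span (log axis), 1 point per library (20 libraries; colour, group; circle, square and triangle, replicates 1, 2 and 3), with the median as a line. Grm7 and Grm5 lie highest, with medians of 3.18 and 2.85, Grm3 lies at 1.00, and Grm8, Grm2 and Grm4 lie between 0.0993 and 0.386.

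The 20 libraries held 49886348 to 87939384 counts, and the lowest count of any member was 122, for Grm2. Excitatory neuron markers were measured in the cultures (median CPM 173.9 for Camk2a and 14.7 for Slc17a7), as were inhibitory neuron markers (248.3 for Gad1, 256.8 for Gad2) and astrocyte markers (402.0 for Slc1a3, 82.3 for Gfap). Of the inhibitory markers Dlx1 was at 0 in each library. Defining genes of mature oligodendrocytes, microglia and endothelium were near 0, with median CPM of 0.105 for Mog, 0.0634 for Tmem119 and 0 for Cldn5. In such mixed cultures fewer cells of a type and less RNA per cell cannot be told apart.

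The response to bicuculline was tested with edgeR's quasi-likelihood method, and a gene was called when its p-value, adjusted by Benjamini-Hochberg over all 16959 tested genes, was under 0.05. Under DMSO 3 of 6 members were called at 1 h, 1 higher and 2 lower, where 44.6% of all tested genes were called. At 4 h 4 of 6 were called, 2 in each direction, against 49.2% of all genes. Under MM401 3 of 6 were called at 1 h against water at 1 h, 2 higher and 1 lower, against 39.9% of all genes. At 4 h 4 of 6 were called, 1 higher and 3 lower, against 44.6% of all genes. With 6 genes these counts do not set the members apart from the background. The members differed in direction and timing: Grm2, Grm3 and Grm4 were called in all 4 comparisons, while Grm5 was called in none of them and Grm7 and Grm8 in 1 each.

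Grm2, the group II autoreceptor of glutamatergic terminals, was raised by bicuculline at 1 h and lowered at 4 h. Under DMSO its level was 2.86, 2.99 and 3.15 CPM in the water libraries and 4.41, 4.14 and 3.70 CPM after 1 h of bicuculline, with no overlap. After 4 h it was 2.16, 2.08 and 1.87 CPM, below every water library. The log2 fold change against water was 0.45 ± 0.11 (SE) at 1 h (edgeR adjusted p = 0.00251) and -0.57 ± 0.12 at 4 h (adjusted p = 0.000368).

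Under MM401 the water libraries held 3.67, 3.06 and 3.18 CPM at 1 h and 3.47 and 3.13 CPM at 4 h. Bicuculline gave 4.19, 3.65 and 4.29 CPM at 1 h, of which 1 lay just below the highest water library, and 2.39, 2.32 and 2.35 CPM at 4 h, all below water. The log2 change was 0.29 ± 0.11 at 1 h (edgeR adjusted p = 0.0430) and -0.49 ± 0.13 at 4 h (adjusted p = 0.00423). From 1 h to 4 h of bicuculline Grm2 fell to 0.496 times its level under DMSO and to 0.582 times under MM401, log2 changes of -1.01 ± 0.12 and -0.78 ± 0.12 (edgeR adjusted p = 4.77e-07 and 1.72e-05). The 1 h call under MM401 was lost in 9 of 15 alternatives. Among them were the fits without replicate 1 or 3 of the bicuculline group (log2 0.27 and 0.25) and without replicate 2 or 3 of its water group (0.24 and 0.27). The others were plain library totals and, each at a log2 change of 0.29, the fits with all 21 libraries (edgeR adjusted p = 0.0972), without the filter on low counts (adjusted p = 0.0704), of only those groups (adjusted p = 0.0703) and against water at 4 h (adjusted p = 0.0728), the reference used under DMSO. The 4 h call was lost without replicate 1 of the 4 h water group (-0.43, edgeR adjusted p = 0.0514). Scaled to the plain library total, the 1 h change was 0.25 under DMSO and 0.09 under MM401, and neither was called. With a correction for gene length it was 0.61 and 0.42, and both were (edgeR adjusted p = 7.83e-05 and 0.00400).

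Grm3, the group II receptor gene of neurons and astrocytes, was the member called higher at 4 h under both pretreatments, though not with plain library totals under either. Under DMSO it stood at 249.2, 271.3 and 281.6 CPM in water, at 237.2, 232.5 and 238.3 CPM after 1 h of bicuculline, and at 342.0, 316.3 and 288.3 CPM after 4 h. The 1 h libraries all lay below water and the 4 h libraries all above it. The log2 fold change was -0.18 ± 0.07 at 1 h (edgeR adjusted p = 0.0287) and 0.24 ± 0.07 at 4 h (adjusted p = 0.00430).

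Under MM401 Grm3 depended on the time of the water control. It was 177.2, 172.7 and 161.2 CPM in water at 1 h and 242.3 and 222.3 CPM in water at 4 h, a log2 difference of 0.45 ± 0.07 (edgeR adjusted p = 0.00267). Grm3 was the only member called between the water times, where 0.867% of all genes were called, and the others lay between -0.22 for Grm4 and 0.34 for Grm5. Bicuculline gave 227.2, 227.0 and 219.2 CPM at 1 h, above water of the same time by 0.40 ± 0.07 (adjusted p = 4.81e-05), and 273.1, 295.3 and 272.3 CPM at 4 h, above water by 0.27 ± 0.07 (adjusted p = 0.00487). Set against water at 4 h, as under DMSO, the 1 h value was -0.05 ± 0.07 (edgeR adjusted p = 0.630), an alternative added after the data were seen. The opposite signs at 1 h thus came with different water times, and DMSO with water at 1 h was not analysed here.

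Between 1 h and 4 h of bicuculline, a comparison that uses no water library, Grm3 rose by 0.42 ± 0.07 under DMSO and 0.32 ± 0.07 under MM401 (edgeR adjusted p = 2.79e-05 and 0.000577). The 1 h decrease under DMSO was small, and the call was lost when any 1 library of its groups other than replicate 1 of DMSO with water was left out (log2 -0.13 to -0.18). It was also lost with DESeq2 (-0.14, adjusted p = 0.0834), with its size factors in edgeR (-0.14, adjusted p = 0.107), with all 21 libraries (-0.16, adjusted p = 0.155) and in a fit of only those groups (-0.15, adjusted p = 0.184), so in 9 of 15 alternatives. It was larger and called with plain library totals (-0.37, edgeR adjusted p = 0.000141) and with the gene length correction (-0.41, adjusted p = 0.000103). With that correction and without replicate 1 of DMSO with water it was -0.50 (edgeR adjusted p = 9.57e-07). The 1 h rise under MM401 was 0.186 with plain library totals and 0.195 with the correction (edgeR adjusted p = 0.0351 and 0.0379), less than with the main scaling, and still called. The call between the water times was lost when replicate 1 of the 4 h water group was left out (0.38, edgeR adjusted p = 0.165) or with all 21 libraries (0.41, adjusted p = 0.0587). The 4 h call under MM401 was lost without replicate 2 of that group (0.18, edgeR adjusted p = 0.173) and with plain library totals (0.19, adjusted p = 0.0529). The 4 h call under DMSO was lost in a fit of only those groups (0.22, edgeR adjusted p = 0.0645). With plain library totals the 4 h rise under DMSO was -0.04, and with a per-library correction for gene length it was 0.003, neither called, so its direction depended on the scaling, as did the size of both 1 h changes.

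Markers of astrocytes and of neurons also differed between the groups. Of 6 astrocyte markers 4 rose under MM401 at 1 h and 4 at 4 h, none falling, while under DMSO 3 rose and 1 fell at 1 h and 1 rose at 4 h, where 39.9%, 44.6%, 44.6% and 49.2% of all genes were called in either direction. Their summed level was 436.0 to 532.4 CPM in MM401 with water at 4 h and 612.7 to 694.9 CPM with bicuculline at 4 h. Under DMSO it was 467.3 to 704.3 CPM in water, 766.3 to 869.3 CPM after 1 h of bicuculline and 618.6 to 698.5 CPM after 4 h. At 1 h under MM401 it was 541.4 to 728.8 CPM in water and 826.6 to 899.9 CPM with bicuculline. At 1 h the astrocyte sum lay above water under both pretreatments, with water taken at 4 h for DMSO and at 1 h for MM401. Against those same groups Grm3 lay below water under DMSO and above it under MM401. Against water at 4 h the Grm3 value under MM401 was -0.05 ± 0.07. The summed excitatory neuron markers were 649.8 to 817.8 CPM in DMSO with water and 1044 to 1121 CPM after 4 h of bicuculline. Under MM401 they were 794.2 to 817.8 CPM in water at 4 h and 962.5 to 1069 CPM with bicuculline. The inhibitory sum was 328.8 to 346.0 CPM in water and 643.1 to 684.5 CPM after 4 h under DMSO, and 333.1 to 387.0 CPM and 587.9 to 647.9 CPM under MM401. The part of these cell types in the Grm3 values was not tested.

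Grm4, a group III presynaptic receptor gene with the lowest median level per length, fell furthest. Under DMSO it was 23.9, 16.96 and 17.7 CPM in water, 14.8, 13.5 and 15.5 CPM after 1 h of bicuculline and 9.50, 8.34 and 9.69 CPM after 4 h. The 3 groups did not overlap. The log2 fold change against water was -0.42 ± 0.14 at 1 h (edgeR adjusted p = 0.0193) and -1.08 ± 0.14 at 4 h (adjusted p = 3.26e-06), which left 0.472 times the water level.

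Under MM401 Grm4 was 27.7, 25.5 and 25.7 CPM in water at 1 h and 23.6 and 21.6 CPM in water at 4 h. Bicuculline lowered it to 20.9, 15.01 and 13.9 CPM at 1 h and to 10.6, 8.06 and 9.43 CPM at 4 h, again without overlap with water of the same time. The log2 fold change was -0.67 ± 0.14 at 1 h (edgeR adjusted p = 0.000673) and -1.27 ± 0.15 at 4 h (adjusted p = 2.18e-06). The fall went on between 1 h and 4 h of bicuculline, by -0.67 ± 0.14 under DMSO and -0.82 ± 0.14 under MM401 (edgeR adjusted p = 0.00100 and 0.000162). The 4 h values kept their call under all 15 alternatives run under DMSO (log2 -1.35 to -0.92) and all 13 under MM401 (-1.37 to -1.18). The 1 h call under DMSO was lost without replicate 2 of the bicuculline group (-0.36, edgeR adjusted p = 0.0749) or replicate 1 of the water group (-0.25, adjusted p = 0.122), and with all 21 libraries (-0.39, adjusted p = 0.0554).

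Over time, 3 of 6 members were called between 1 h and 4 h of bicuculline under DMSO, where 34.2% of all genes were called, and 3 of 6 under MM401, where 33.6% were. They were Grm2, Grm3 and Grm4 under each pretreatment, with 1 higher and 2 lower in both. Grm5 was called as well in 2 of 14 alternatives under DMSO, and Grm7 in 3 of 14 under MM401. The comparisons share the 1 h and 4 h bicuculline libraries with those against water.

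**Figure D2:**
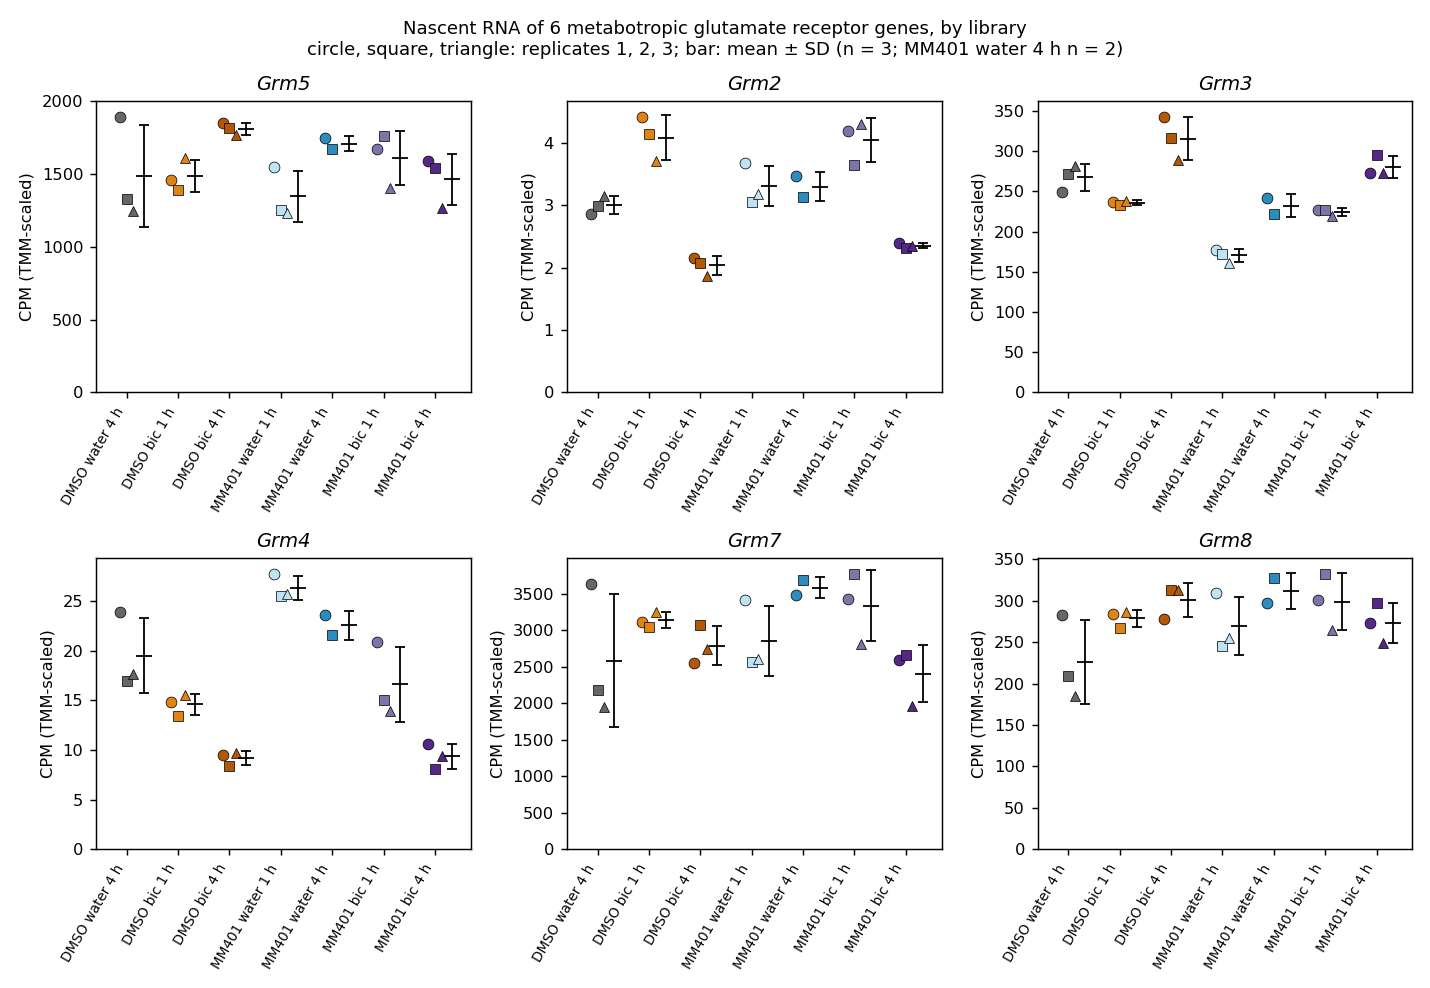
CPM (TMM-scaled, linear axes from 0) of the 6 members in each library, by group. Circles, squares and triangles are replicates 1, 2 and 3, and the bar beside them is the mean with its SD (n = 3, n = 2 for MM401 with water at 4 h). Grm2 is high at 1 h and low at 4 h of bicuculline, Grm4 steps down, and replicate 1 of DMSO with water lies above the other two in Grm5, Grm7 and Grm8.

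Grm5, the group I receptor gene, had no called response to bicuculline in the main fit. Its DMSO libraries held 1890, 1327 and 1243 CPM in water, 1458, 1393 and 1609 CPM after 1 h of bicuculline and 1850, 1817 and 1768 CPM after 4 h. Replicate 1 in water lay above every bicuculline library, and the other two water libraries lay below every one. The difference was 0.00 ± 0.13 (log2) at 1 h, with an interval of 2 SE from -0.26 to 0.26, and 0.29 ± 0.13 at 4 h (edgeR adjusted p = 0.0785). With replicate number as a block the 4 h value was called (0.30, edgeR adjusted p = 0.0274). Under MM401 Grm5 was 1551, 1257 and 1235 CPM in water at 1 h against 1669, 1761 and 1403 CPM with bicuculline (log2 0.26 ± 0.13, edgeR adjusted p = 0.128, but 0.043 with plain library totals and -0.013 with the gene length correction). At 4 h it was 1745 and 1674 CPM in water against 1591, 1540 and 1265 CPM with bicuculline, all lower, for -0.22 ± 0.15 (adjusted p = 0.228). That 4 h difference was called with plain library totals (-0.30), with the gene length correction (-0.19) and in a fit of only those groups (-0.24; edgeR adjusted p = 0.0208, 0.0367 and 0.0410). When replicate 1 of the 1 h water group was left out, the 1 h value was 0.37 (edgeR adjusted p = 0.0469). With the gene length correction Grm5 was called lower at 1 h under DMSO (-0.26, edgeR adjusted p = 0.00279), and its 4 h value there was 0.036, against 0.026 with plain library totals (adjusted p = 0.681 and 0.828).

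Grm7, the group III receptor gene of active zones and the longest member, differed with bicuculline only at 4 h under MM401 by the edgeR test. There it was 3481 and 3687 CPM in water and 2592, 2665 and 1961 CPM with bicuculline, with no overlap and a log2 fold change of -0.57 ± 0.20 (adjusted p = 0.0269). At 1 h under MM401 it was 3412, 2562 and 2603 CPM in water against 3436, 3770 and 2812 CPM (0.22 ± 0.18, edgeR adjusted p = 0.357, but 0.0085 with plain library totals and -0.083 with the gene length correction). Under DMSO it was 3632, 2179 and 1945 CPM in water, 3120, 3050 and 3258 CPM after 1 h and 2548, 3073 and 2749 CPM after 4 h. The corresponding log2 values were 0.28 ± 0.18 and 0.11 ± 0.18 (edgeR adjusted p = 0.225 and 0.653), and the 1 h value was 0.11 with plain library totals and 0.0098 with the gene length correction (adjusted p = 0.563 and 0.951). The 4 h call under MM401 was lost without replicate 3 of the bicuculline group (-0.45) or without either water library (-0.64 without replicate 1 and -0.57 without replicate 2), and with the shallow replicate 3 of that water group included (-0.38, edgeR adjusted p = 0.221).

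Grm8, a group III receptor gene, was called at 4 h under DMSO. It was 283.1, 208.5 and 185.5 CPM in water, 283.5, 266.8 and 285.9 CPM after 1 h of bicuculline and 277.7, 313.2 and 312.4 CPM after 4 h. Replicate 1 in water overlapped the bicuculline libraries at both times. In log2 terms this was 0.31 ± 0.13 at 1 h (edgeR adjusted p = 0.0563) and 0.42 ± 0.13 at 4 h (adjusted p = 0.0101). The 1 h difference was called by DESeq2 (0.34, adjusted p = 0.0221) and by edgeR with the size factors of DESeq2 (0.34, adjusted p = 0.0430), while it was 0.13 with plain library totals and 0.019 with the gene length correction (edgeR adjusted p = 0.234 and 0.840). The 4 h call was lost without replicate 2 or 3 in water (0.34 and 0.27, edgeR adjusted p = 0.0653 and 0.0902), with plain library totals (0.16) and with the gene length correction (0.15). Under MM401 Grm8 was 308.9, 244.9 and 254.5 CPM in water at 1 h against 300.6, 332.0 and 264.1 CPM with bicuculline, and 296.7 and 327.0 CPM in water at 4 h against 273.6, 297.6 and 249 CPM. Neither difference was called by edgeR (0.15 ± 0.13 and -0.19 ± 0.14, adjusted p = 0.370 and 0.287). The 1 h value was -0.065 with plain library totals, -0.15 with the gene length correction and -0.061 against water at 4 h, none of them called. At 4 h Grm8 was called lower by edgeR in 2 of 13 alternatives, with plain library totals (-0.27, adjusted p = 0.0336) and in a fit of only those groups (-0.21, adjusted p = 0.0223).

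**Figure D3:**
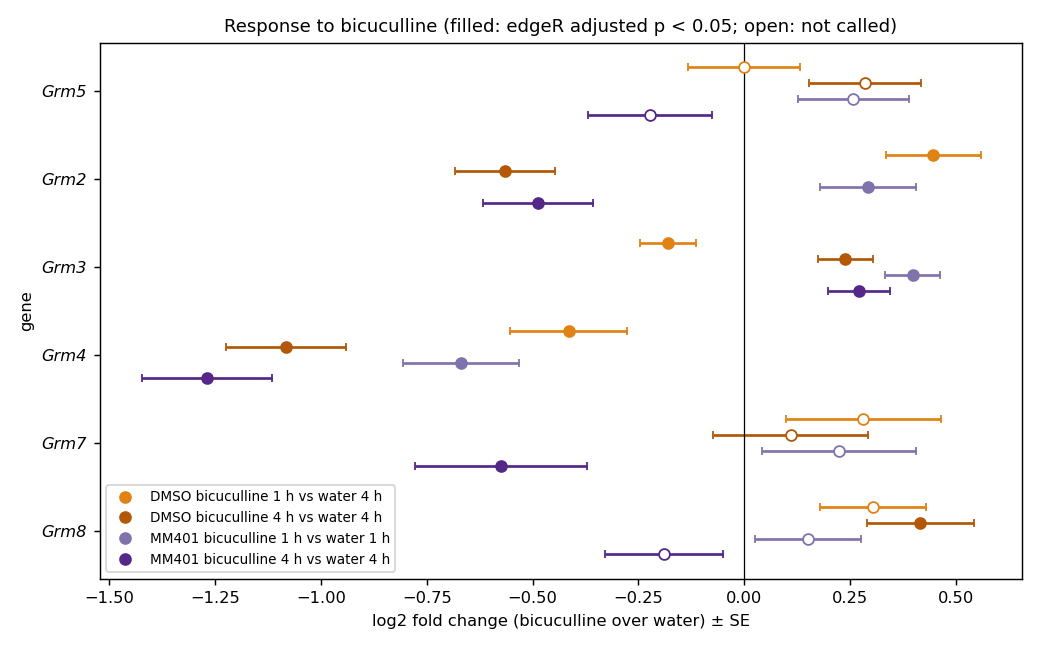
Log2 fold change of bicuculline over water for the 6 members, with its SE as the bar, in the 4 comparisons against water. Filled points were called by edgeR. Grm4 lies left of 0 throughout, down to -1.27, Grm2 changes side between 1 h and 4 h, and most points of Grm5, Grm7 and Grm8 are open.

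The share of counts that a library held in long genes differed between libraries of a group. Grm7 was broadly higher where this share was higher, but not within every group. In MM401 with water at 4 h Grm7 was 3481 CPM at a share of 20.3% and 3687 CPM at 19.8%. That share, over the 214 genes of at least 500 kb, was 20.9% in replicate 1 of DMSO with water and 17.6% and 16.9% in replicates 2 and 3. It was 19.4% to 19.7% in DMSO with bicuculline at 1 h and 18.9% to 19.5% at 4 h. In the MM401 groups it ran from 18.3% to 20.97% in water at 1 h, was 20.3% and 19.8% in water at 4 h, and ran from 18.9% to 20.8% with bicuculline at 1 h and from 16.3% to 18.6% at 4 h. Grm7 was lowest in replicate 3 of DMSO with water and of MM401 with bicuculline at 4 h, the libraries with the lowest shares. Grm5 followed the share less closely: DMSO with bicuculline at 4 h held its 1768 to 1850 CPM at shares of 18.9% to 19.5%, and replicate 1 of MM401 with water at 1 h held 1551 CPM at 20.97%. Across the 20 libraries the Pearson correlation of log2 CPM was 0.81 between Grm7 and Grm8, 0.75 between Grm5 and Grm8 and 0.68 between Grm5 and Grm7, a description over libraries that share scaling and great gene length. Between Grm3 and Grm4 it was -0.79 and between Grm2 and Grm4 0.60.

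**Figure D4:**
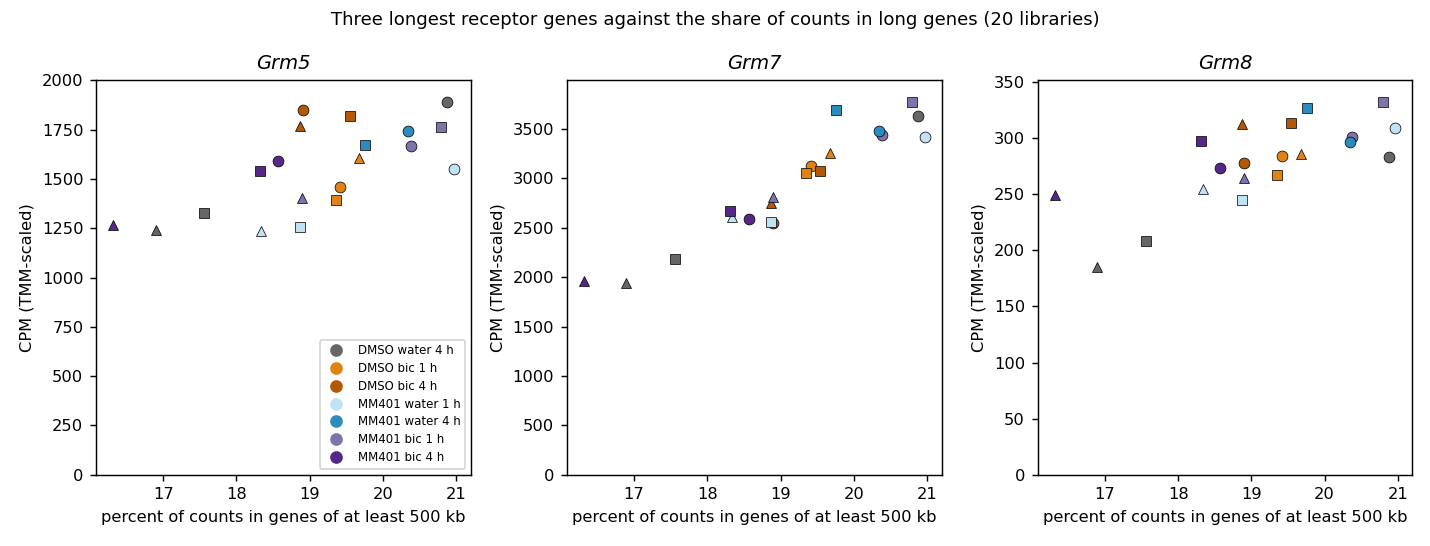
CPM of Grm5, Grm7 and Grm8 against the percent of each library's counts in genes of at least 500 kb, the members included (20 libraries; colour, group; symbol, replicate). Grm7 broadly rises with this share across groups, with 1961 CPM at 16.3% and 3632 CPM at 20.9%. The highest share, 20.97% in replicate 1 of MM401 with water at 1 h, goes with 3412 CPM. Replicate 1 of DMSO with water (grey circle) lies apart from replicates 2 and 3 of its group.

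The 206 tested genes of at least 500 kb had a median log2 fold change of 0.27 at 1 h and 0.27 at 4 h under DMSO, 0.26 at 1 h and -0.05 at 4 h under MM401. The medians over all tested genes were -0.04, -0.02, 0.00 and 0.02. The part of this length-related difference in the values of Grm5, Grm7 and Grm8 was not tested beyond the length correction. Replicate 1 of DMSO with water decided several of their calls. Without it Grm7 and Grm8 were called higher at 1 h under DMSO (0.61 and 0.50, edgeR adjusted p = 0.00146 and 0.000544), and at 4 h Grm5 and Grm7 were too (0.50 and 0.44, adjusted p = 0.000830 and 0.0142). With the length correction as well, none of these 4 calls remained: Grm7 and Grm8 were 0.17 and 0.076 at 1 h (edgeR adjusted p = 0.0779 and 0.381), and Grm5 and Grm7 were 0.13 and 0.022 at 4 h (adjusted p = 0.0793 and 0.851). In that fit Grm5 was called lower at 1 h (-0.17, edgeR adjusted p = 0.0286) and Grm8 higher at 4 h (0.20, adjusted p = 0.0131).

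MM401 was compared directly with DMSO to ask whether MLL1 inhibition altered these genes. No member was called in water at 4 h, where 0.0826% of all genes were called, in bicuculline at 1 h (0.0059%) or in bicuculline at 4 h (0%). By an unadjusted edgeR p under 0.05 the members numbered 3, 0 and 2, among 2194, 540 and 1309 genes, and DESeq2 called none of them either. In water Grm8 was 0.47 ± 0.14 higher and Grm7 0.47 ± 0.20 higher under MM401, and Grm3 was -0.20 ± 0.07 (edgeR adjusted p = 0.185, 0.334 and 0.261). The libraries of Grm8 and of Grm3 did not overlap, and those of Grm7 did. Grm2, Grm4 and Grm5 were 0.14 ± 0.13, 0.22 ± 0.15 and 0.20 ± 0.15, and Grm5 was 0.075 with the length correction. In bicuculline at 1 h the 6 members lay between -0.07 and 0.18. In bicuculline at 4 h they lay between -0.31 for Grm5 and 0.21 for Grm2. The members with an unadjusted p under 0.05 there were Grm3 (-0.17 ± 0.07) and Grm5 (-0.31 ± 0.13), both with an edgeR adjusted p of 0.639. The MM401 libraries of Grm5 lay below and those of Grm2 above each DMSO library, and the groups overlapped in Grm3. Intervals of 2 SE were wide: for Grm4, called in all 4 responses, the difference between pretreatments in bicuculline at 4 h lay between -0.26 and 0.32.

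The difference between the 2 responses was tested as an interaction, the response under MM401 minus that under DMSO. No member and 0% of all genes were called at 1 h, with both responses taken against water at 4 h, and likewise none and 0% at 4 h. By unadjusted edgeR p under 0.05 there were 0 members at 1 h and 3 at 4 h, among 1326 and 2552 genes. DESeq2 called no member at 1 h, and Grm5 and Grm8 at 4 h (-0.54 and -0.63, adjusted p = 0.0483 and 0.0340). The 1 h interaction of the 6 members lay between -0.38 for Grm7 and 0.13 for Grm3 (edgeR adjusted p of at least 0.660). For Grm2, Grm3 and Grm4 the 4 h interaction was 0.08 ± 0.18, 0.03 ± 0.10 and -0.19 ± 0.21 (edgeR adjusted p = 0.854, 0.899 and 0.689). For Grm5, Grm7 and Grm8 it was -0.51 ± 0.20, -0.69 ± 0.27 and -0.61 ± 0.19 (adjusted p = 0.257, 0.269 and 0.229), beside a median of -0.39 over the 206 genes of at least 500 kb. With the length correction they were -0.22, -0.36 and -0.27 (edgeR adjusted p = 0.535, 0.528 and 0.485).

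Leaving out replicate 1 of DMSO with water turned these non-calls into calls. The 4 h interaction became -0.72 for Grm5, -1.01 for Grm7 and -0.80 for Grm8 (edgeR adjusted p = 0.00979, 0.00648 and 0.00473), while the genes called overall went from 0 to 1551. In water at 4 h Grm5, Grm7 and Grm8 were then higher under MM401 (0.41, 0.80 and 0.66) and Grm3 lower (-0.25), with edgeR adjusted p = 0.0405, 0.00586, 0.00305 and 0.0408, and the genes called overall went from 14 to 1272. With the length correction added, the differences of Grm5, Grm7, Grm8 and Grm3 in water were 0.17, 0.50, 0.37 and -0.40 (edgeR adjusted p = 0.139, 0.00252, 0.00476 and 0.00252). The 4 h interaction of Grm5, Grm7 and Grm8 was then -0.32, -0.53 and -0.32 (edgeR adjusted p = 0.0488, 0.0189 and 0.0640), and that of Grm3 was 0.34 (adjusted p = 0.0432). By edgeR the calls of the long members in both comparisons depended on that 1 library, while the direction did not.

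The partner genes of the receptors were counted from lists chosen by role. Beside each count stand the shares of all tested genes called in either direction, 44.6% at 1 h and 49.2% at 4 h under DMSO and 39.9% and 44.6% under MM401, and counts near these shares are no result about a list. Of 10 postsynaptic scaffold genes 2 rose and 1 fell at 1 h under DMSO and under MM401 alike. Homer1, whose short product uncouples group I receptors from their scaffold, rose by 2.29 ± 0.13 under DMSO and 2.65 ± 0.14 under MM401. Grasp, the gene of the group I receptor scaffold tamalin, rose by 2.17 ± 0.10 and 2.03 ± 0.09. At 4 h 2 scaffold genes rose and 2 fell under DMSO, where Homer1 was 0.65 ± 0.13 and Grasp 1.20 ± 0.09, and 1 rose and 4 fell under MM401, where Shank3, a scaffold of the postsynaptic density, fell by 0.65 ± 0.09 on the log2 scale.

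Of 11 genes of the Gq arm 4 rose and 3 fell at 1 h and 5 rose and 2 fell at 4 h under DMSO. Under MM401 it was 4 and 2 at 1 h, and 2 and 3 at 4 h. Protein kinase C alpha (Prkca) rose at 4 h by 0.76 ± 0.09 under DMSO, phospholipase C beta 1 (Plcb1) by 0.69 ± 0.11, and the G protein gene Gna11 fell by 0.64 ± 0.12. Of 15 genes of the Gi/o arm 6 rose and 1 fell at 1 h, and 6 rose and 5 fell at 4 h, under DMSO. Under MM401 it was 6 and 2 at 1 h, and 2 and 6 at 4 h. The adenylyl cyclase gene Adcy8 (0.87 ± 0.10), the potassium channel gene Kcnj3 (0.80 ± 0.14) and the G protein gene Gnai1 (0.73 ± 0.08) rose at 4 h under DMSO.

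Of 4 genes for binding partners 1 rose and 1 fell at 1 h under each pretreatment. Elfn2, whose product binds group III receptors across the synapse, fell at 1 h by 0.45 ± 0.12 under DMSO and 0.79 ± 0.12 under MM401 on the log2 scale. At 4 h Elfn1, a trans-synaptic partner of mGluR7, rose by 0.25 ± 0.07 under DMSO. In all 2 of the 4 rose and 1 fell at 4 h under DMSO, and 0 rose and 1 fell under MM401, where Elfn2 fell by 0.40 ± 0.13. Of 6 desensitisation genes 2 rose and 1 fell at 1 h under DMSO, 2 rose and 0 fell at 1 h under MM401, and 2 rose and 1 fell at 4 h under each pretreatment. The genes that rose were Rgs2 and Rgs4, which speed the shut-off of G proteins, with 1.96 ± 0.13 and 1.64 ± 0.22 at 1 h under DMSO and 2.02 ± 0.13 and 1.91 ± 0.22 under MM401. The receptor kinase gene Grk2 fell at 1 h under DMSO (-0.36 ± 0.08) and at 4 h under MM401 (-0.35 ± 0.09).

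Of 8 genes for glutamate supply and uptake 3 rose and 2 fell at 1 h and 2 rose at 4 h under DMSO, and 5 rose and 1 fell at 1 h and 3 rose at 4 h under MM401. The vesicular glutamate transporter gene Slc17a6 rose by 0.87 ± 0.11 at 1 h and 1.56 ± 0.11 at 4 h under DMSO. The astrocytic glutamate transporter gene Slc1a3, also counted among the astrocyte markers, rose by 0.59 ± 0.12 at 1 h under DMSO. These values are edgeR calls over all tested genes, with adjusted p under the threshold for each gene said to rise or fall.

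The genes with the most similar profiles were ranked by the Pearson correlation of log2 CPM over the 20 libraries, among 12454 genes with a mean of at least 2 CPM. For Grm2 they were Il16 (0.94), Egr3 (0.93) and Adam12 (0.93), of which Egr3 encodes an activity-induced transcription factor. For Grm3 they were Tox (0.96), Hist1h1d (0.94) and Etv1 (0.93). For Grm4 they were Zfp523, Sez6l and Jakmip1 (0.98 each). For the long members they were Cntn6 (0.97), Adgrb3 (0.95) and Nr6a1 (0.95) for Grm5, Csmd1 (0.98), Lingo2 (0.97) and Cdh12 (0.97) for Grm7, and Oxr1 (0.96), Rapgef4 (0.94) and Trhde (0.94) for Grm8. The lengths of these last 9 genes ran from 203089 to 1642842 bp, a range that also holds Adam12 (341900 bp) and Tox (303339 bp). These correlations describe libraries of 7 groups and carry no test.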

How the data were processed

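Nascent RNA was measured in 21 libraries of 7 groups of mouse cortical cultures. Per the file headers, the authors deposited raw read counts per gene, with the whole gene as the feature. The submitters' processing notes name Bowtie2, UMI-tools, featureCounts, DESeq2, deepTools and mm10. The use of strand, aligner settings and handling of reads with several positions were not given in the sources used here. The deposited table also gives each gene's length, used for levels per kilobase.

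Counts of 20 libraries were fitted with edgeR 4.0.16 (robust quasi-likelihood, R 4.3.3, limma 3.58.1) with a mean per group. TMM scaling was used, with edgeR's filterByExpr (minimum count 10, total 15), which kept 16959 of 24984 genes, and p-values were adjusted by Benjamini-Hochberg over all of them in each of 12 comparisons (two-sided). CPM are TMM-scaled, and errors are SE. The common biological coefficient of variation was 8.77%. Replicates were separate samples per the labels, and the counts of no pair agreed within sampling noise (chi-square per degree of freedom 6.18 to 78.5). The script was tested on simulated data. The members and gene lists were chosen with earlier results of these data known. All 6 members were examined in every comparison, some given by their range, pathway genes as at most 3 called genes per list with the largest change at 1 h and 4 h, and similar genes as the 3 with the highest correlation.

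Groups share replicate numbers, and what a number stands for is not given in the labels. The deviations of same-numbered libraries correlated with a median of 0.09 (-0.23 to 0.28), and 25 of 57 were over 0.1. Of the groups compared, MM401 and DMSO with bicuculline at 4 h had all 3 over 0.1 (0.15, 0.11 and 0.17), and the replicate block changed no member's call there. Alternatives were DESeq2 1.42.0, other scalings, filters and samples, the block, a gene length correction and leaving out each library.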

Additional observations from a re-analysis of the deposited data

Results flagged for a closer look

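The library left out of every comparison, replicate 3 of MM401 with water at 4 h, held more than 3 counts, the limit a count of 0 allows, for 5 of the 6 members: 82 for Grm3, 16 for Grm4, 644 for Grm5, 805 for Grm7 and 101 for Grm8. Grm2 had 0. Scaled to the plain total, Grm3 was 258.9 CPM (exact Poisson 95% interval 205.9 to 321.4), beside 252.0 and 230.8 CPM in replicates 1 and 2. Grm8 was 318.9 CPM (259.7 to 387.5), beside 308.6 and 339.5 CPM. Grm4 was 50.5 CPM (28.9 to 82.0), above 24.6 and 22.4 CPM, and Grm5 was 2033 CPM (1879 to 2197), above 1815 and 1738 CPM. Grm7 was 2541 CPM (2369 to 2723), below 3621 and 3828 CPM. The intervals cover counting error only, and no test was made on this library.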

How the results depend on the processing

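At 4 h Grm4 kept its call and direction under every alternative run, under both pretreatments, as did Grm2 under DMSO. With all 21 libraries 1 member was called at 1 h under DMSO and 0 between the water times. Counts of all genes were then 0 for MM401 against DMSO in water, 3745 and 3646 for 4 h against 1 h of bicuculline under DMSO and MM401, and 19 between the water times. DESeq2 called 162 genes for MM401 against DMSO in water, 14 in bicuculline at 1 h and 7 at 4 h, 275 between the water times, 5 in the 1 h interaction, and 436 genes with 2 members (Grm5 and Grm8) in the 4 h interaction. Fitting only the groups compared gave 0 genes for MM401 against DMSO in water and 328 between the water times. Plain library totals gave 4 genes for the former and 2 members at 4 h under DMSO, where Grm3 (-0.040) and Grm7 (-0.14) reversed, as did Grm8 at 1 h under MM401 (-0.065). The length correction gave 2 members at 4 h under DMSO, with Grm7 at -0.14, and 235 genes between the water times. It reversed Grm5 (-0.013), Grm7 (-0.083) and Grm8 (-0.15) at 1 h under MM401. Grm5 at 1 h under DMSO, at 0.00, was 0.023 with 21 libraries, 0.038 with DESeq2, 0.038 with its size factors in edgeR and 0.026 with only those groups. The causes were not tested.

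The length correction without replicate 1 of DMSO with water, added after the data were seen, called 3 members and 813 genes for MM401 against DMSO in water, 1 member and 92 genes in the 1 h interaction, and 3 members (Grm3, Grm5 and Grm7) and 336 genes in the 4 h interaction, and Grm3 at 4 h under DMSO was -0.095. Water at 4 h as the reference, also added, left 1 member at 1 h under MM401, with Grm3 at -0.049, Grm5 at -0.086, Grm7 at -0.10 and Grm8 at -0.061. With the replicate block 4 and 5 members were called at 1 h and 4 h under DMSO (Grm8, 0.32, and Grm5, 0.30, added) and 4 between 1 h and 4 h under MM401 (Grm7, -0.48), while Grm5 at 1 h under DMSO was 0.021 and 4 genes were called for MM401 against DMSO in bicuculline at 1 h. The block changed no other member's call.

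Leaving out 1 library in turn, members called ran from 1 to 4 at 1 h and 3 to 6 at 4 h under DMSO, from 2 to 4 at 1 h and at 4 h under MM401, from 0 to 4 for MM401 against DMSO in water, 0 to 1 between the water times and 0 to 3 in the 4 h interaction. Counts of all genes ran from 0 to 1272 for MM401 against DMSO in water, 0 to 2 in bicuculline at 1 h, 14 to 140 between the water times, 0 to 97 in the 1 h interaction and 0 to 1551 in the 4 h interaction. Grm5 at 1 h under DMSO ran from 0.014 to 0.21 where it reversed, and Grm7 at 4 h under DMSO was -0.020 and -0.086 without replicates 2 and 3 in water and 0.44 without replicate 1. Grm2 had the lowest counts, 122 to 344 a library.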
